A study of Homo sapiens with 8 samples.

Results

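The miR-191 and miR-425 cluster is a pair of microRNA (miRNA) hairpins that give 4 mature strands, hsa-miR-191-5p, hsa-miR-191-3p, hsa-miR-425-5p and hsa-miR-425-3p. The 4 strands were taken by name, and all 4 were among the 1818 mature miRNA names with a read in any of the 8 libraries. Every library held reads of every strand. All 4 passed the filter on low counts, which left 625 names for testing.

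MIR191 and MIR425 are transcribed with their host gene DALRD3. Drosha cuts such primary transcripts into precursor hairpins, and DICER, the RNase III enzyme under study, then removes the loop and leaves a duplex of a 5p and a 3p strand. An Argonaute protein keeps mainly one strand, the guide, and the passenger strand is mostly lost. In both hairpins the 5p strand is the main product, and miR-191-5p is often used as a reference for normalising miRNA measurements by RT-qPCR.

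The cells were HCT116, a human colorectal carcinoma line, rescued with DICER that carried the substitution R1855L, R821H or R1003Q, or with wild-type (WT) DICER, with 2 libraries per group. The sources used here do not give how the rescue was made, whether the cells still made their own DICER, or whether replicates were separate cultures. The p-values therefore reflect differences among these libraries only, which could be technical. Small RNA was read by AQ-seq, a protocol built to lessen the bias of adapter ligation, and each mutant is set against WT for its miRNA output. Library totals were 2241881 and 462805 reads in R1855L, 3340304 and 841857 in R821H, 1143373 and 675934 in R1003Q, and 1137858 and 4269231 in WT (replicates 1 and 2).

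In GRCh38, MIR191 lies on the minus strand of chromosome 3 from 49020618 to 49020709, and MIR425 follows it downstream on the same strand from 49020148 to 49020234. The hairpins are 383 bases apart. Both lie in introns of DALRD3 (chromosome 3, 49015488 to 49022293, minus strand) in all 4 annotated DALRD3 transcripts that span them, and MIR191 also lies in an intron of 1 transcript of NDUFAF3 on the opposite strand. The mature strands are shown because the seed (bases 2 to 8, in capitals) sets which messages a strand can pair with. RefSeq sequences (GRCh38.p14) matched 3 of the 4 strands by name:
hsa-miR-191-5p: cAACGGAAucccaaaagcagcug
hsa-miR-191-3p: gCUGCGCUuggauuucgucccc
hsa-miR-425-3p: aUCGGGAAugucguguccgccc

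The 3 seeds differ from each other, and no other mature name in the RefSeq table carries any of them. Every count of the 4 strands was a whole number of reads, whereas between 19 and 33 names per library carried fractions of a read. miR-191-5p is 23 bases long, and miR-191-3p and miR-425-3p are 22 bases each. The MIR191 hairpin is shown with both mature strands in capitals, since DICER cuts at the inner ends of these strands:
MIR191 hairpin: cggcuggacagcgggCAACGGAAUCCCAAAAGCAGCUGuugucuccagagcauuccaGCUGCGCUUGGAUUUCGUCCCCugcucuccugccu
The span from the first base of miR-191-5p to the last base of miR-191-3p is 64 bases, of which 19 lie between the strands.

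The libraries fell into 3 deep ones (R1855L replicate 1, R821H replicate 1 and WT replicate 2) and 5 shallow ones, divided where the log totals lay farthest apart. Both R1003Q libraries were shallow. Of 8 miRNAs fixed as marks of the colorectal epithelial line, 7 had reads in every library and miR-215-5p was at 0 in 2 libraries. The 8 together made 3112 to 3594 CPM (read counts scaled to the same library total) in R1855L, 3049.8 to 3288 in R821H, 2947 to 3172 in R1003Q and 3508 to 3685 in WT. Within this list miR-200b-3p had 974 to 1562 CPM over the 8 libraries, whereas miR-200c-3p had 21 to 44 CPM and miR-141-3p 13 to 43 CPM. The 8 listed blood-cell miRNAs together made 755 to 1095 CPM in R1855L, 633 to 666 in R821H, 649 to 673 in R1003Q and 635 to 914 in WT. Of these, miR-155-5p was at 0 in 7 of 8 libraries. miR-142-3p had 257 to 449 CPM over the libraries, miR-451a 115 to 302 and miR-486-5p 24 to 296. miR-142-5p had 42 to 104 CPM, miR-144-3p 14 to 80, miR-223-3p 1.2 to 10.8 and miR-150-5p 2.3 to 10.4. The listed miRNAs of muscle, liver and neurons made 629 to 1193 CPM in R1855L, 759 to 912 in R821H, 749 to 835 in R1003Q and 714 to 844 in WT, with miR-1-3p at 0 in 5 libraries and miR-124-3p at 0 in 2. Most of that sum came from miR-9-5p, at 532 to 1076 CPM over the 8 libraries, and miR-122-5p had 61 to 114 CPM. The part of any list in the results below was not tested.

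miR-191-5p was the most abundant strand of the cluster and held nearly the same level in all 4 groups. Levels are CPM scaled by TMM, a factor that corrects for differences in library composition. miR-191-5p had 4950.4 and 5169 CPM in R1855L, 6064 and 4994 CPM in R821H, 5279 and 5418 CPM in R1003Q, and 5869.7 and 6021 CPM in WT (replicates 1 and 2). The R1855L and R1003Q libraries all lay below both WT libraries, while the R821H libraries fell on either side of them. The group means were 5059 ± 154 CPM in R1855L, 5529 ± 757 in R821H, 5349 ± 98.2 in R1003Q and 5945 ± 107 in WT (SD, n = 2 each). When reads were scaled by the library total alone, the R1855L libraries had 4490.4 and 6069.5 CPM against 6792 and 5422 CPM in WT, so these groups overlapped. By the same scaling R1003Q had 5165 and 5638 CPM and also overlapped WT.

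Neighbours in that order (R1855L, R1003Q, R821H, WT) differed little. By TMM the R1003Q libraries lay above both R1855L libraries, but by library totals alone they lay between them. The share of all tested names with R1003Q wholly above R1855L is not given here. The TMM range of R821H covered the libraries of R1003Q and of WT. Within each library miR-191-5p ranked between 28 and 39 among all listed names. Its share of the reads was lowest in R1855L replicate 1, at 0.449% (exact Clopper-Pearson 95% interval 0.440 to 0.458), and highest in WT replicate 1, at 0.679% (0.664 to 0.694). No molecular identifiers are mentioned for these reads, and such intervals cover counting error only.

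**Figure D1:**
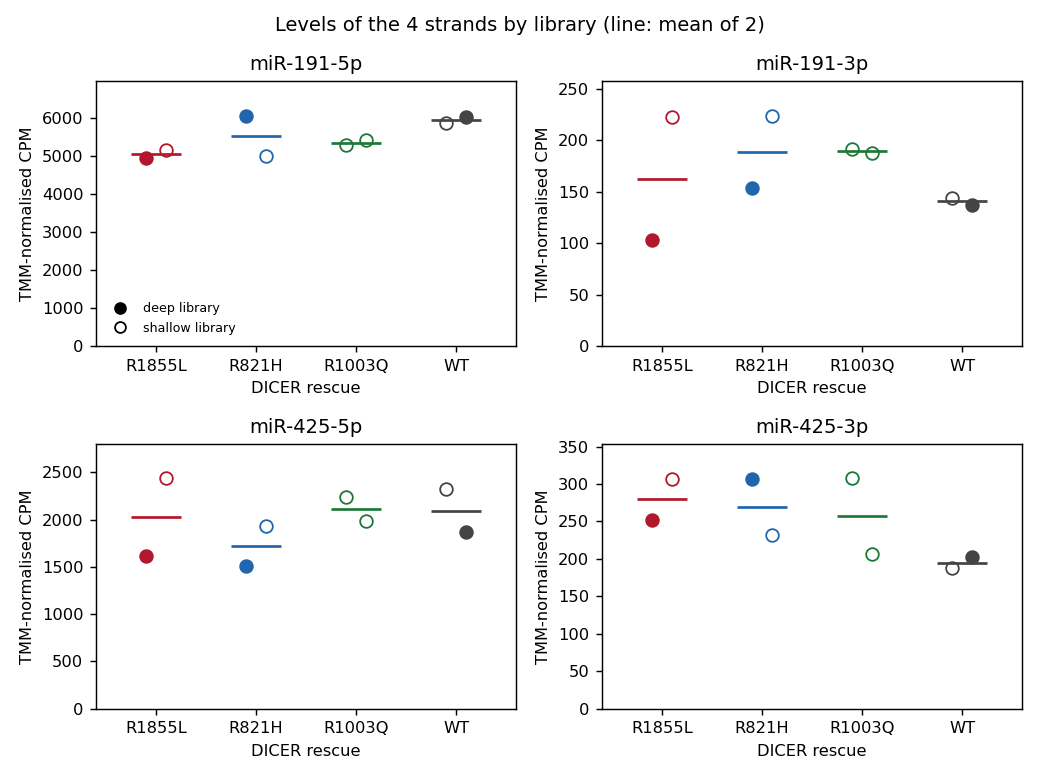
Level of each strand (y axis, TMM-normalised CPM from 0) in each library by DICER rescue (x axis), with filled points for deep and open points for shallow libraries and a line at the mean of the 2 libraries. miR-191-5p lies between 4950.4 and 6064 CPM in all 8 libraries. All 6 mutant libraries of miR-425-3p lie above both WT libraries, which does not hold for R1003Q when reads are scaled by the library total alone. The share of all tested names with every mutant library above WT was not computed.

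Across the 8 libraries miR-191-5p was among the steadiest miRNAs measured. Its highest level was 1.22 times its lowest by TMM, or 1.51 times by library totals alone. The SD of its log2 CPM by TMM was 0.12, against a median of 0.47 over the 625 tested names. Only 4 names had a smaller SD, or 30 when libraries were scaled by their totals alone. The other strands varied more. The SD was 0.25 for miR-425-5p, with 74 names below it, 0.29 for miR-425-3p, with 117 below, and 0.38 for miR-191-3p, with 224 below. By library totals alone the SD of miR-425-5p was 0.39, with 216 names below it, and that of miR-191-3p was 0.48, with 296 below. The highest level of miR-191-3p, the passenger of miR-191-5p, was 2.17 times its lowest. These spreads are descriptions over libraries of all groups and carry no test.

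**Figure D2:**
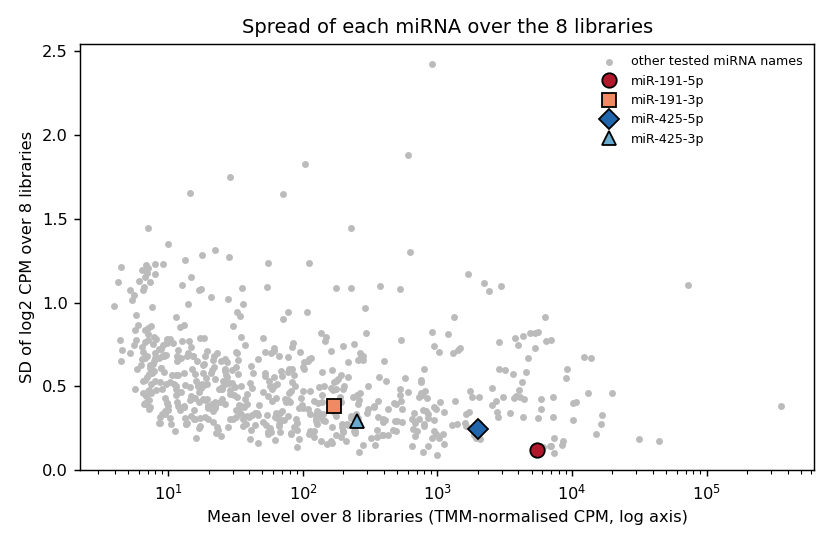
SD of log2 CPM over the 8 libraries (y axis) against mean level (x axis, log scale) for the 625 tested names, with the 4 strands marked. miR-191-5p sits near the lower edge at an SD of 0.12, and miR-191-3p at 0.38.

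miR-425-5p, the guide of the second hairpin, had 1616 and 2436 CPM in R1855L, 1510.2 and 1929.5 CPM in R821H, 2239.6 and 1985 CPM in R1003Q, and 2327 and 1864 CPM in WT. The 3 mutant groups all overlapped WT. The shallow library was the higher one in each group that held a deep and a shallow library. Means were 2026 ± 580 CPM in R1855L, 1720 ± 296 in R821H, 2112 ± 180 in R1003Q and 2096 ± 328 in WT (SD, n = 2 each), so the order of the 4 means lay within the spread of the libraries. The strand ranked between 49 and 78 within a library.

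miR-425-3p, the passenger of that hairpin, had the largest fitted difference from WT among the 4 strands in R1855L and in R821H, and it did not pass the test. It had 252 and 307 CPM in R1855L, 306 and 232 CPM in R821H, 308 and 206 CPM in R1003Q, and 188 and 203 CPM in WT. Each mutant library lay above both WT libraries, narrowly so for R1003Q replicate 2. By library totals alone that library had 214.5 CPM, between the WT libraries at 217 and 182 CPM, so R1003Q overlapped WT while R1855L and R821H still lay above it. The 3 comparisons share the same 2 WT libraries and are not independent of each other. The share of all tested names with every mutant library above WT was not computed, and the shares for each mutant are given below. The mutants overlapped one another throughout.

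miR-191-3p, the rarest strand, had 103 and 223 CPM in R1855L, 153 and 224 CPM in R821H, 191 and 188 CPM in R1003Q, and 144 and 137 CPM in WT. The R821H and R1003Q libraries lay above both WT libraries, and the R1855L libraries lay on either side of them. By library totals alone R821H replicate 1 had 135 CPM, between the WT libraries at 167 and 124 CPM, so R821H overlapped WT. These levels rest on few reads, with 209 and 121 reads in R1855L, 450 and 188 in R821H, 214 and 132 in R1003Q, and 190 and 528 in WT. In R1855L, R821H and WT, the groups with a library of each depth class, the shallow library was the higher one, though by little in WT.

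None of the 4 strands was called in any mutant against WT by edgeR's quasi-likelihood test with Benjamini-Hochberg adjustment over 625 names, where a call is an adjusted p under 0.05. The background of called names was 5.76% in R1855L (5.44% lower and 0.32% higher), 0% in R821H and 0% in R1003Q. No strand had an unadjusted p under 0.05 by edgeR, beside 18.4% of names in R1855L, 3.2% in R821H and 4.96% in R1003Q. DESeq2 called 0 of the 4 as well and gave none an unadjusted p under 0.05. Groups that do not overlap were common among all tested names. The libraries lay wholly above WT for 21.1% of names in R1855L, 15.4% in R821H and 22.9% in R1003Q, and wholly below for 21.4%, 13.1% and 17.8%.

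For miR-191-5p the fitted log2 fold change against WT was -0.23 in R1855L (SE 0.23, edgeR adjusted p = 0.652), -0.10 in R821H (SE 0.23, adjusted p = 0.994) and -0.15 in R1003Q (SE 0.23, adjusted p = 0.913). The 95% intervals of the fold run from 0.588 to 1.23 in R1855L, from 0.643 to 1.34 in R821H and from 0.622 to 1.30 in R1003Q. A fall or a rise by a factor of 2 lies outside all 3 intervals of this fit, and each includes no change. That bound rests on the filter and on a spread shared by all groups. The R1855L value had a larger SE without a filter (-0.37, SE 0.34) and from only the 4 libraries compared (-0.25, SE 0.38). Fold intervals of those fits are not given here. For miR-425-5p the log2 fold changes were -0.05 in R1855L, -0.29 in R821H and 0.01 in R1003Q, and the fold intervals were 0.605 to 1.54, 0.513 to 1.31 and 0.631 to 1.61. The R1003Q value of miR-425-5p changed sign with the scaling and was -0.038 by median-ratio size factors or by total counts.

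For miR-425-3p the log2 fold change was 0.51 in R1855L (SE 0.28, edgeR adjusted p = 0.379), 0.47 in R821H (SE 0.28, adjusted p = 0.994) and 0.40 in R1003Q (SE 0.28, adjusted p = 0.863). The fold intervals were 0.902 to 2.26, 0.875 to 2.18 and 0.833 to 2.09, so each includes no change and a rise by a factor of 2. Single libraries decided 2 of these values, since R1003Q had 0.040 without its replicate 1 and 0.62 without its replicate 2, and R821H had 0.17 without its replicate 1. For miR-191-3p the values were 0.19 in R1855L (SE 0.39), 0.42 in R821H (SE 0.38) and 0.43 in R1003Q (SE 0.38), and without R1855L replicate 2 the R1855L value was -0.47. The medians over all tested names were 0.13, 0.04 and 0.06. A test of any difference among the 4 groups did not call a strand either (smallest edgeR adjusted p = 0.743, for miR-425-3p), against 2.88% of names called.

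**Figure D3:**
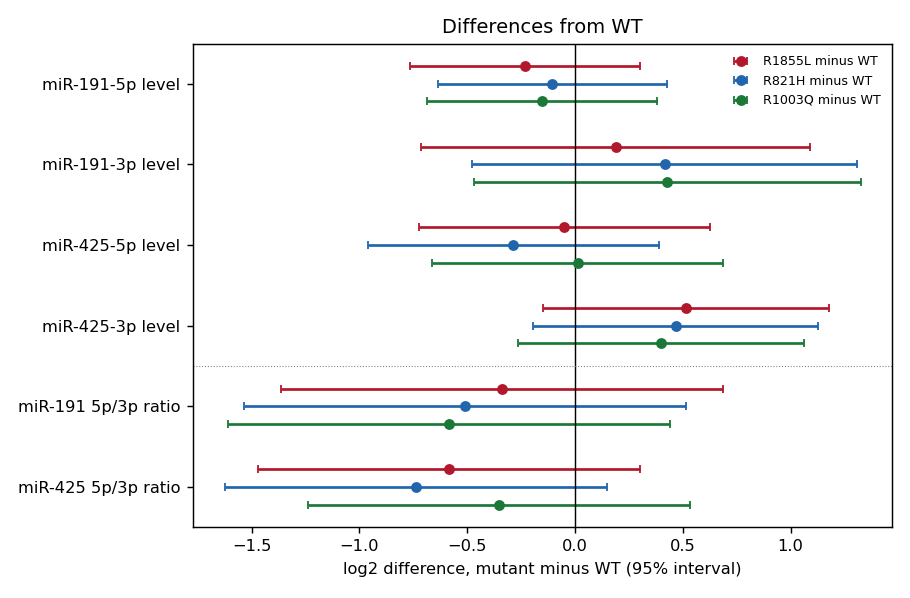
Log2 difference from WT with its 95% interval (x axis) for the level of each strand (edgeR) and the 5p/3p ratio of each hairpin (limma) in R1855L, R821H and R1003Q. All 18 intervals include 0, those of miR-191-5p are the narrowest, and the points of miR-425-3p lie at 0.40 to 0.51.

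The balance of the 2 strands of a hairpin is not moved by library scaling. Both hairpins gave mostly 5p reads in every library, as did 110 of the 174 hairpins with enough reads on both strands. In miR-191 there were 48.2 and 23.2 reads of 5p per 3p read in R1855L, 39.5 and 22.3 in R821H, 27.6 and 28.9 in R1003Q, and 40.7 and 43.8 in WT. Both R821H and both R1003Q libraries lay below both WT libraries, and R1855L replicate 1 had the highest ratio of all 8. Of the 174 hairpins, 19 had a higher mean ratio than miR-191.

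In miR-425 there were 6.42 and 7.93 reads of 5p per 3p read in R1855L, 4.93 and 8.31 in R821H, 7.28 and 9.63 in R1003Q, and 12.4 and 9.20 in WT. The R1855L and R821H libraries all lay below both WT libraries, whereas R1003Q replicate 2 lay between them. As a share of the hairpin's reads, the 3p strand made 13.5% (exact 95% interval 12.4 to 14.6) and 11.2% (9.64 to 12.9) in R1855L, 16.9% (15.9 to 17.9) and 10.7% (9.36 to 12.3) in R821H, 12.1% (10.9 to 13.3) and 9.41% (7.998 to 11.0) in R1003Q, and 7.46% (6.59 to 8.41) and 9.80% (9.16 to 10.5) in WT. The 2 WT libraries differed from each other by more than their counting intervals, as did the 2 of R821H. In miR-191 the same held for R1855L, at 2.03% (1.77 to 2.33) and 4.13% (3.44 to 4.91). It also held there for R821H, at 2.47% (2.25 to 2.70) and 4.29% (3.71 to 4.93). The miR-191 intervals of the 2 WT libraries overlapped, as did those of R1003Q.

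**Figure D4:**
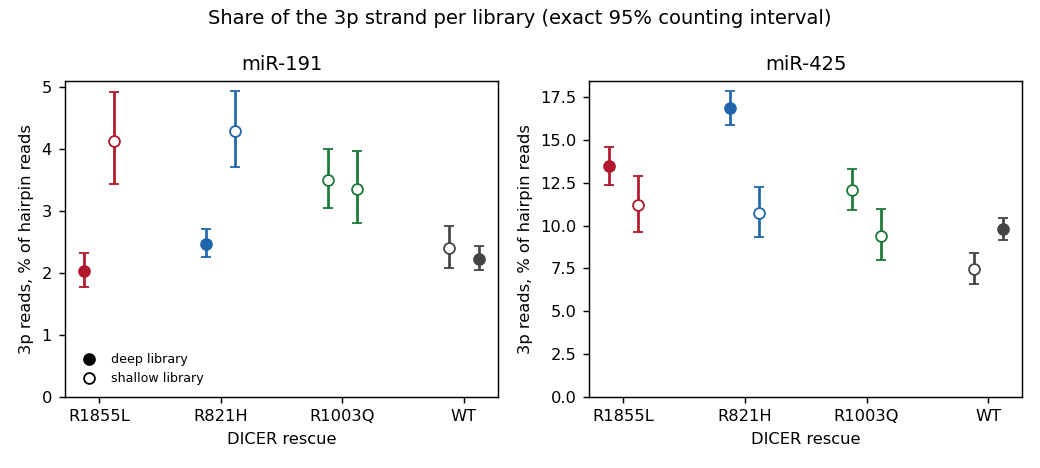
Share of 3p reads in all reads of the hairpin (y axis, percent) in each library by DICER rescue (x axis), with exact 95% counting intervals and filled points for deep libraries. In miR-191 the shallow R1855L and R821H libraries, at 4.13% and 4.29%, stand above their deep partners at 2.03% and 2.47%, and in miR-425 the deep R821H library is the highest at 16.9%.

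No strand ratio of the cluster was called. The log2 5p/3p ratio of miR-425 averaged 2.83 ± 0.21 in R1855L, 2.68 ± 0.53 in R821H, 3.06 ± 0.28 in R1003Q and 3.42 ± 0.30 in WT (SD, n = 2 each). Its difference from WT was -0.58 in R1855L (SE 0.39, limma adjusted p = 0.521), -0.74 in R821H (SE 0.39, adjusted p = 0.862) and -0.35 in R1003Q (SE 0.39, adjusted p = 0.830). The intervals of these differences were -1.47 to 0.30, -1.62 to 0.15 and -1.24 to 0.53. The R1855L value was -0.37 without WT replicate 1. The R821H value was -0.36 without R821H replicate 1 and -1.11 without R821H replicate 2. The R1003Q value was -0.14 without WT replicate 1, -0.15 without R1003Q replicate 1, -0.57 without WT replicate 2 and -0.55 without R1003Q replicate 2. For miR-191 the differences were -0.34, -0.51 and -0.58 (SE 0.45 each), with intervals of -1.36 to 0.69, -1.53 to 0.52 and -1.61 to 0.44. The miR-191 value in R1855L was -0.87 without R1855L replicate 1 and 0.19 without R1855L replicate 2. In R821H it was -0.92 without R821H replicate 1 and -0.095 without R821H replicate 2.

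The 3 comparisons of a hairpin share the same 2 WT libraries, so the common sign of their values is no independent support. The median difference over the 174 hairpins was 0.23 in R1855L, 0.11 in R821H and 0.06 in R1003Q. The shares of hairpins called were 7.47% in R1855L, 0% in R821H and 0% in R1003Q, and the shares whose libraries all lay below WT were 10.9%, 13.2% and 10.3%. Neither hairpin had an unadjusted p under 0.05 by limma, beside 20.1% of hairpins in R1855L, 1.72% in R821H and 4.6% in R1003Q. Over the 4 groups together limma gave adjusted p = 0.884 for miR-191 and 0.752 for miR-425, against 5.17% of hairpins called.

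Some of these measures moved with the depth class of the library. With depth class added to the model, miR-191-3p was lower in deep than in shallow libraries by a log2 difference of -0.56 (SE 0.19, edgeR adjusted p = 0.0215) and miR-425-5p by -0.42 (SE 0.14, adjusted p = 0.0191). miR-191-5p (0.08, SE 0.14) and miR-425-3p (0.08, SE 0.18) did not pass. The miR-191 5p/3p ratio was higher in deep libraries, by 0.66 (SE 0.24, limma adjusted p = 0.0299), and that of miR-425 had a difference of -0.49 (SE 0.24, adjusted p = 0.132). The difference between these 2 ratios was not tested. The same term called 228 of 625 names and 43 of 174 ratios. It rests on R1855L, R821H and WT, the groups with a library in each class.

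Between libraries of the same depth class, the miR-425 ratio was lower than WT in each mutant. The log2 difference was -0.52 (deep libraries) and -0.65 (shallow libraries) for R1855L, -0.90 and -0.58 for R821H, and -0.57 for the 2 R1003Q libraries against the shallow WT library. These values reuse 1 deep and 1 shallow WT library, so their common sign is no independent support. The share of all hairpins with a common sign was not computed. miR-425-3p levels differed by 0.31 and 0.71 in R1855L, 0.59 and 0.31 in R821H and 0.42 in R1003Q, each from single libraries of WT. The miR-191 ratio differed in R1855L by 0.13 among deep and by -0.81 among shallow libraries, so its sign was not shared by the 2 classes. In R821H it differed by -0.15 and -0.87, and in R1003Q by -0.53 among shallow libraries. Adding the depth term moved the miR-191 ratio of R1003Q against WT from -0.58 to -0.25. The same term moved miR-191-3p there from 0.43 to 0.12 and the miR-425 ratio from -0.35 to -0.60. With the depth term no strand and no ratio was called against WT, and the smallest adjusted p was 0.0900 by edgeR, for miR-425-3p in R1855L.

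The hairpins share a host transcript, and their relative output can be read without library scaling. Reads of both miR-425 strands over reads of both miR-191 strands came to 0.370 and 0.509 in R1855L, 0.292 and 0.414 in R821H, 0.466 and 0.391 in R1003Q, and 0.418 and 0.336 in WT. The groups overlapped, with log2 means of -1.21 ± 0.33 in R1855L, -1.52 ± 0.36 in R821H, -1.23 ± 0.18 in R1003Q and -1.42 ± 0.22 in WT (SD, n = 2 each). Among 3p strands the order of the hairpins turned, since miR-425-3p exceeded miR-191-3p in every library, by a factor of 1.04 in R821H replicate 2 up to 2.45 in R1855L replicate 1. The 4 strands together made 7528 ± 858 CPM in R1855L, 7707 ± 463 in R821H, 7907 ± 156 in R1003Q and 8377 ± 215 in WT.

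The mutants were also compared with R1855L, the one mutant with called names against WT. In R821H against R1855L the log2 fold changes were 0.13 for miR-191-5p, 0.23 for miR-191-3p, -0.24 for miR-425-5p and -0.05 for miR-425-3p. In R1003Q against R1855L they were 0.08, 0.24, 0.06 and -0.12 in the same order. None was called, beside 3.84% of names in R821H and 3.68% in R1003Q. None had an unadjusted p under 0.05 by edgeR or DESeq2, beside 14.9% and 14.7% of names by edgeR. The miR-425 ratio differed by -0.16 in R821H and 0.23 in R1003Q, and that of miR-191 by -0.17 and -0.24, with no call against 6.32% and 7.47% of hairpins. The miR-425 intervals were -1.04 to 0.73 in R821H and -0.66 to 1.12 in R1003Q.

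As a setting for these values, a list was made of 36 names from hairpins that also lie in groups within introns of 1 protein-coding gene, with hosts MCM7, SMC4, AOPEP, NFYC, HUWE1, SKA2, GABRE and CLCN5. The list was chosen with earlier results of these data known, so its shares of calls are a description and no test. In R1855L 4 of the 36 were called lower and 0 higher, beside 5.44% and 0.32% of all names, with a median log2 fold change of 0.07 beside 0.13 over all names, and the lowest was miR-25-3p at -1.92 (SE 0.23, edgeR adjusted p = 0.00513). The highest, miR-30c-1-3p, had 1.37 (SE 0.34, adjusted p = 0.0667). In R821H and R1003Q 0 of the 36 were called, as of all names, with medians of -0.03 and -0.12 beside 0.04 and 0.06 over all names. The lowest was miR-98-5p in both, at -1.59 (SE 0.77) and -2.27 (SE 0.80). The highest was miR-188-3p in both, at 0.89 (SE 0.53) and 0.95 (SE 0.56). The 5p/3p ratio was called in 3 of the 16 tested hairpins of the list in R1855L, beside 7.47% of all hairpins, and in 0 in R821H and R1003Q, beside 0% of all. The list's median ratio differences were 0.43, 0.25 and 0.38, beside 0.23, 0.11 and 0.06 over all hairpins.

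The members shared no single pattern across libraries. Over the 8 libraries Pearson's r between log2 levels was -0.16 for miR-191-5p with miR-425-5p, -0.25 for the 2 strands of miR-191 and -0.09 for the 2 strands of miR-425. It was -0.26 for miR-191-5p with miR-425-3p, 0.27 for the 3p strands of both hairpins and 0.56 for miR-191-3p with miR-425-5p, the 2 strands that were lower in deep libraries. Among 338 other names with a mean of at least 50 CPM, those most like miR-191-5p were miR-146b-5p (r = 0.93), miR-26a-5p (0.89) and miR-193b-3p (0.83). Those most like miR-425-5p were let-7g-3p (r = 0.93), miR-483-3p (0.89) and miR-27a-3p (0.87). Each of these names was picked as among the highest of 338 by r, so a high r is no test of likeness. The highest r was 0.97 for miR-191-3p and 0.80 for miR-425-3p. All these correlations describe 8 libraries that share groups and depth classes, and for miR-191-5p they rest on a range of 1.22 times in level by TMM.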

How the data were processed

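The authors deposited 1 table of estimated counts per library, with raw reads for each mature miRNA and no pooling of replicates. Some values are fractions of a read, names are listed from 1 read upward, and absent names were set to 0. Per the submitters' processing notes, the tools included BWA, cutadapt and bedtools, and hg38 and mm10 were listed as builds, without versions or roles. The miRNA annotation release is not given in the sources used here.

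Counts were rounded, filtered with filterByExpr and scaled by TMM, and 1 edgeR 4.0.16 quasi-likelihood model with group as the only term was fitted to all 8 libraries (R 4.3.3). Standard errors are the absolute log2 fold change over the square root of F. Log2 5p/3p ratios (pseudocount 0.5, at least 80 reads per strand) were fitted with limma 3.58.1. Intervals use each model's degrees of freedom. Alternatives were DESeq2 1.42.0, other scalings and filters, the 4 libraries compared, replicate and depth terms, and each library left out. The fits were tested on simulated data. Named miRNAs beyond the 4 strands were the 3 names most correlated with each 5p strand, the extremes of the intronic list and some members of the marker lists. The members and lists were chosen with earlier results of these data known. Figures used matplotlib 3.10.9.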

Additional observations from a re-analysis of the deposited data

How the results depend on the processing

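No strand and no ratio of the cluster passed an adjusted p of 0.05 under any alternative run (0 of 342 values over 30 results, smallest adjusted p = 0.0900), nor in the test over the 4 groups (0 of 80, smallest 0.204). The sign held in 308 of the 342 and turned in 34, in each case between values that did not pass. The cause was not tested. For miR-425-5p in R1003Q against WT the value turned to -0.038 by median-ratio size factors, total counts or DESeq2, -0.13 without a filter, -0.030 with a filter of 50 CPM and -0.19 with the depth term. Against R1855L, with total counts miR-191-5p in R821H was -0.035 and miR-425-5p in R1003Q -0.022, and without a filter miR-425-3p in R821H was 0.026. With the depth term, R1003Q against R1855L gave -0.12 for miR-425-5p, 0.088 for the miR-191 ratio and -0.017 for the miR-425 ratio.

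Leaving out 1 library, with the lone library of its group assumed to vary like the other groups, turned these results over the ranges given. Against WT they were miR-191-3p (-0.47 to 0.55), miR-425-5p (-0.40 to 0.12) and the miR-191 ratio (-0.87 to 0.19) in R1855L, miR-191-5p in R821H (-0.34 to 0.00077) and miR-425-5p in R1003Q (-0.24 to 0.18). Without turning, miR-191-3p (0.096 to 0.58) and miR-425-5p (-0.52 to -0.13) in R821H against WT also moved widely. In R821H against R1855L they were miR-191-5p (-0.046 to 0.29), miR-191-3p (-0.21 to 0.84), miR-425-5p (-0.46 to 0.057), miR-425-3p (-0.29 to 0.16), the miR-191 ratio (-0.70 to 0.36) and the miR-425 ratio (-0.53 to 0.22). In R1003Q against R1855L they were miR-191-3p (-0.18 to 0.86), miR-425-5p (-0.16 to 0.36), miR-425-3p (-0.44 to 0.14) and the miR-191 ratio (-0.77 to 0.28).

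The background counts over all names moved more. R1855L against WT had 36 calls, and 14 by total counts, 19 with the replicate block, 177 with the depth term, 2 from only the 4 libraries and 15 to 27 with a library left out (15 without R1855L replicate 1, 17 without WT replicate 1). Its called ratios were 13, and 32 with the depth term, 4 from the 4 libraries and 4 to 14 with a library left out (4 without WT replicate 1, 7 without WT replicate 2). R821H against WT had 0 calls, 16 with the depth term and 1 by DESeq2, and R1003Q against WT 0 calls, 2 with the depth term, and 1 ratio with it. R821H against R1855L had 24 calls, and 8 by total counts, 40 without a filter, 15 with the block, 114 with the depth term, 38 by DESeq2, 6 from the 4 libraries and 8 to 18 with a library left out. Its 11 ratios became 6 with the block, 39 with the depth term, 5 from the 4 libraries and 3 to 11 with a library left out. R1003Q against R1855L had 23 calls, and 11 by total counts, 13 with the block, 93 with the depth term, 38 by DESeq2, 13 from the 4 libraries and 2 to 16 with a library left out. Its 13 ratios became 2 with the block, 28 with the depth term, 5 from the 4 libraries and 2 to 11 with a library left out.

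Same-numbered libraries were not a pair in the labels. The correlation of their deviations was -0.70 between R1855L and WT and -0.68 between R821H and WT, and the replicate block changed no call of a strand or ratio of the cluster, with miR-425-3p at 0.52 in R1855L, 0.45 in R821H and 0.38 in R1003Q against WT. A crossed pairing, chosen after seeing the data, gave 188 names and 31 ratios in R1855L against WT and 0 names and 2 ratios in R821H against WT. In both comparisons replicate 1 is deep in the mutant and shallow in WT, so the crossed pairing matches the depth classes. Total counts moved the median of all names by -0.12 in R821H against WT and by -0.13 in R821H against R1855L. The SD of miR-191-5p over the 8 libraries was 0.18 by total counts. Depth limits miR-191-3p most, which had 121 reads in its shallowest library.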
